A study of Mus musculus with 38 samples.

Results

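Acetylation of histone H3 at lysine 27 (H3K27ac) was compared between livers of mice fasted for 24 h and livers of mice fed ad libitum. Chromatin was immunoprecipitated with the H3K27ac antibody #39133 and sequenced, and the authors pooled the 3 libraries of each feeding state into 1 list of enriched regions. The 24 h fasted group and the fed group were C57BL/6 mice kept on a 12-hr light cycle, and the labels name no mutation, transgene or drug in either. Sex and age are not given in the labels, and nothing there says whether the 3 libraries of a state came from separate animals. All regions of the pooled 24 h list and of the pooled fed list were taken, 62020 of the 278566 regions in the 11 lists of the series that could be tied to a group of samples. Regions of the 2 lists were matched where they had at least 1 base in common. Each region carries 1 density, the highest tag density inside it as the authors give it, and 1 z-score from their peak caller. There is no value per library, hence no spread between replicates, and what follows compares 2 pooled lists without a test. Read counts are not part of the lists, so their depth is unknown. Intervals in this text cover counting error only, and since neighbouring regions are not independent they are too narrow.

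H3K27ac is written by the acetyltransferases p300 and CBP at active promoters and enhancers, and it is removed by histone deacetylases. In liver it is laid down at genes of hepatocyte identity and at genes that answer to feeding and fasting. During a fast, glucagon acts through cAMP and protein kinase A on CREB, the cAMP response element binding protein, while corticosterone acts through the glucocorticoid receptor (GR), and both factors recruit coactivators to enhancers of glucose production and fat oxidation. Liver tissue holds several cell types, so a list made from it cannot tell fewer cells carrying the mark apart from less of the mark per cell.

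The 24 h fasted list held 32103 regions covering 37.0 Mb, and the fed list held 29917 regions covering 35.4 Mb, each on 21 chromosomes. The median region was 797 bp wide at 24 h and 821 bp wide in the fed list. The median density was 14.5 at 24 h and 17.8 fed, a pair of values that cannot be set against each other because the normalisation behind the density is not stated. The lowest z-score was 8.61 at 24 h and 10.9 in the fed list, so the 24 h list reached further down. Of the 24 h regions, 25577 overlapped a fed region, which is 79.7% (95% Wilson interval 79.2 to 80.1). Of the fed regions, 25537 overlapped a 24 h region. That is 85.4% (85.0 to 85.8).

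Regions found in 1 list but not in the other took a small part of the acetylated sequence. At 24 h, 6526 regions had no fed counterpart (24 h-only regions), 20.3% of the list, and they held 3.26 Mb or 8.81% of the bases it covered. In the fed list, 4380 regions had no 24 h counterpart (fed-only regions), 14.6% of the list, and they held 2.22 Mb or 6.28% of its covered bases. They were narrow and weak in both lists. The median 24 h-only region was 434 bp wide (interval 427 to 441), against 990 bp (977 to 1003) for the shared regions of that list. In the fed list the medians were 444 bp (437 to 449) for fed-only regions and 958 bp (944 to 973) for shared ones. A width of 1000 bp or more was reached by 5.53% of the 24 h-only regions and by 5.57% of the fed-only regions. Among shared regions it was reached by 49.6% of those at 24 h and 48.2% of those fed.

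The share of regions missing from the other list was lower the denser the region, in each list. In the lowest decile of the 24 h list by density, 58.4% of the regions (56.6 to 60.1) were absent from the fed list, and in the lowest decile of the fed list 39.6% (37.8 to 41.3) were absent from the 24 h list. In the fifth decile the shares were 18.3% at 24 h and 14.1% in the fed list. In the top decile they were 0.280% at 24 h, which is 9 of 3210 regions, and 0.0334% in the fed list, which is 1 of 2991. Width gave the same picture. The shares were 59.8% in the narrowest decile of the 24 h list and 46.8% in the narrowest decile of the fed list, and they were 0.467% and 0.368% in the widest deciles at 24 h and fed.

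**Figure D1:**
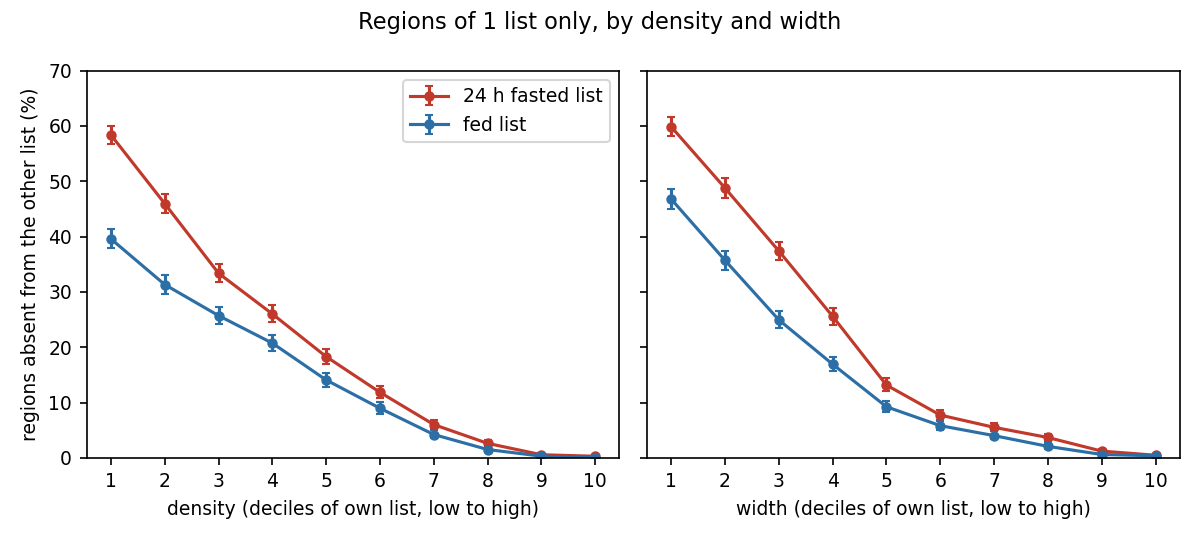
Share of regions absent from the other list (y axis, percent) by decile of the region's own list (x axis, low to high), ordered by density on the left and by width on the right, for the 24 h fasted list (red) and the fed list (blue). Points are shares and bars are 95% Wilson intervals. Both curves run down from the lowest decile, 58.4% at 24 h and 39.6% fed by density, to 0.280% and 0.0334% in the top decile. In both panels the 24 h curve lies above the fed curve in every decile, and in the ninth and top deciles the intervals overlap.

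Many 24 h-only regions had z-scores below the range of the fed list. Of the 6526 24 h-only regions, 3303 (50.6%) had a z-score under the lowest z-score in the fed list, and the other 3223 were at or above it. Without the low-scoring 24 h regions, 87.8% of the 24 h regions overlapped a fed region and 3223 were found at 24 h only. The 4380 fed-only regions were counted against the whole 24 h list, so these counts cannot be set against each other. The list of livers fasted for 10 h, also from 3 pooled libraries, offers a separate view of both groups. It held 69.0% of the higher-scoring 24 h-only regions (67.4 to 70.6) and 52.5% of the low-scoring ones (50.8 to 54.2), against 76.9% of the fed-only regions (75.6 to 78.1). Of the shared regions it held 95.4% of the 24 h ones and 95.3% of the fed ones. In the densest 25% of its list, the 24 h list had 65 24 h-only regions, 52 of which were in the 10 h list. The fed list had 25 fed-only regions, and 24 of them were in the 10 h list.

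Many of the regions found in 1 list lay just beside a region of the other list. Of the 24 h-only regions, 22.3% (21.3 to 23.4) lay within 500 bp of a fed region, and of the fed-only regions, 28.0% (26.7 to 29.4) lay within 500 bp of a 24 h region. Within 12500 bp the shares were 58.5% for 24 h-only and 67.5% for fed-only regions. Within 100000 bp they were 87.7% (86.9 to 88.5) for 24 h-only and 93.5% (92.7 to 94.2) for fed-only regions. This order turned in lists of equal length, where the 24 h-only and fed-only sets also changed, to 5207 and 5117 regions. What lay behind the turn was not tested. With only as many of the densest 24 h regions as the fed list holds, the shares within 100000 bp were 93.1% for 24 h-only and 88.5% for fed-only regions.

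The widest 24 h-only and fed-only regions were a few kilobases long. The widest 24 h-only region lay at chr5:30490591-30494262 (3671 bp, density 24.1, mm9), and another of the 5 widest lay beside it at chr5:30494792-30497829 (3037 bp, density 20.2). Both were also in the 10 h list. Those at chr18:12855677-12858819 (3142 bp), chr6:108041537-108044626 (3089 bp) and chr19:55169449-55172439 (2990 bp) each overlapped a GR site of hormone-treated hepatocytes. The share over all 24 h-only regions was 5.59%, at a median width of 434 bp, and the part of width in this was not tested. The widest fed-only region lay at chr19:39357526-39361446 (3920 bp, density 17.2), 4 bp from the nearest 24 h region. The other 4 fed-only regions, at 2684 to 2937 bp, lay 212 to 21560 bp from the nearest 24 h region. All 10 were in the 10 h list.

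Of the 5 densest 24 h-only regions, 4 lay on chromosome Y between positions 2777647 and 2895935, with densities of 67.0 to 83.9 and z-scores of 8.85 to 12.6. They were 263 to 702 bp wide and lay 289 to 1542 bp from the nearest fed region. The fifth, chr15:57852863-57854742, had a density of 61.1 (percentile 94.2), a z-score of 106.8 and a width of 1879 bp, and it overlapped a CREB site of fasted liver and a region of the 10 h list. The densest fed-only region lay at chr17:28415601-28418024, with a density of 61.8 (percentile 92.9) and a z-score of 103.2. The other 4 fed-only regions had densities of 45.3 to 51.0, and 3 of them lay on chromosome 4. That at chr4:106135129-106137772 overlapped a CREB site of fed liver, as did 5.62% of all fed-only regions. The chr15 region and each of the 5 fed-only regions except chr4:61676151-61678033 overlapped a CREB site of hepatocytes given glucagon and corticosterone. All 5 fed-only regions were in the 10 h list.

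For regions present in both states, density was compared by rank. A 24 h region and a fed region were paired when each overlapped the other and no further region, which gave 21247 pairs, 66.2% of the 24 h regions and 71.0% of the fed regions. Each state's densities were turned into percentiles among the pairs, so both rankings have the same length, and a rise in this rank is a rise relative to the other pairs and not a measured gain of acetylation. The order of the pairs was much the same in the 2 states. Spearman's rho over the 21247 pairs was 0.890 for density, 0.854 for width and 0.861 for z-score, a description over regions that share a library pool and a genome. The percentile differed by a median of 7.17 points, and 62.6% of the pairs stayed within 10 points.

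Pairs that differed by 25 points or more were called ranked higher or lower at 24 h. There were 776 ranked higher, 3.65% of the pairs, and 796 ranked lower, 3.75%. Ranking among the pairs makes rises and falls cancel in sum, though it does not fix the counts past a limit. The order of the counts turned at a limit of 40 points, with 173 pairs ranked higher and 118 lower. It also turned with percentiles taken in each whole list, with 1102 higher and 541 lower. The balance between the directions thus carries no information. Pairs just past the limit, at 25 to 26 points, numbered 78 higher and 87 lower, and pairs just short of it, at 24 to 25 points, numbered 80 higher and 97 lower. Most of the movement was at middle densities. By decile of the mean of both percentiles, the fourth decile had 8.02% of its pairs ranked higher and 7.97% ranked lower at 24 h, and the ninth decile had 0.143% ranked higher and 0.191% ranked lower. A pair in the lowest or highest decile has little room to move 25 points.

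**Figure D2:**
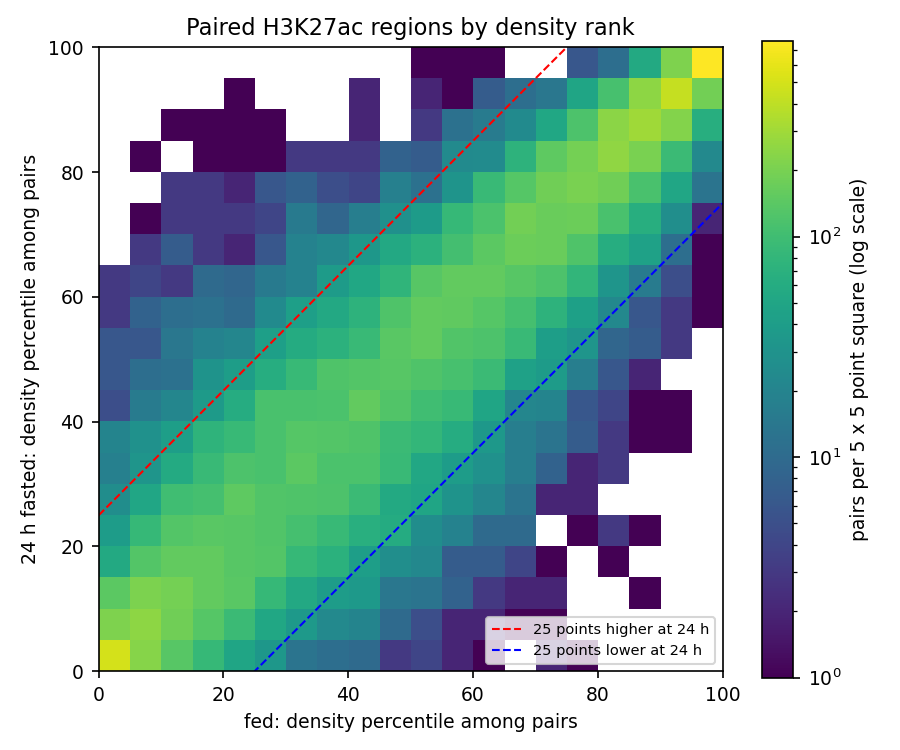
Paired H3K27ac regions by density percentile in 24 h fasted liver (y axis) and in fed liver (x axis), as the number of pairs in each square of 5 by 5 points (colour, log scale). Pairs above the red dashed line ranked 25 or more points higher at 24 h (776) and those below the blue dashed line 25 or more points lower (796). Most pairs lie along the diagonal, and the squares at its ends hold the most pairs.

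Rank and width moved together, but both were read from the same regions of the same 2 lists, so width is no separate evidence. Pairs ranked higher at 24 h had a median percentile of 58.4 at 24 h and 22.3 fed, and a median width of 1274.5 bp at 24 h and 636 bp fed. Of these pairs, 98.2% (97.0 to 98.9) were wider at 24 h, with a median ratio of 1.72. Pairs ranked lower at 24 h had a median percentile of 24.3 at 24 h and 57.6 fed, and a median width of 636.5 bp at 24 h and 1212 bp fed. Only 1.63% of them were wider at 24 h, and the median ratio was 0.607. Over all pairs the rank shift and the log width ratio had a Spearman's rho of 0.674, a description over regions of the same 2 pooled lists. By width alone, 861 pairs (4.05%) were 2 times or more wider at 24 h, and 723 (3.40%) were 2 times or more narrower. Of the 861, 302 ranked higher and 0 ranked lower. Of the 723, 0 ranked higher and 274 ranked lower.

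The pairs with the widest rank differences among the densest 25% of either ranking are given by position, as the lists name no genes. Their densities are printed as the authors give them, and only the percentiles compare the 2 states. At chr7:127083954-127085679 the 24 h region had a density of 47.0, at percentile 86.0, and the fed region had 9.27, at percentile 11.8. The 24 h region was 1725 bp wide and the fed one 460 bp. In regions paired in all 3 H3K27ac lists it stood at percentile 9.93 fed, 41.0 at 10 h and 84.4 at 24 h. At chr16:13678032-13680037 the density was 38.9 (percentile 80.1) at 24 h and 8.64 (9.30) fed, and the 10 h percentile in the 3 lists, 72.7, was close to the 77.7 at 24 h. At chr5:136115637-136117490 the density was 65.4 (percentile 94.0) at 24 h and 12.3 (23.8) fed. This region overlapped a GR site and had 2 24 h-only regions within 12500 bp. At chr6:84174863-84176574, also at a GR site, the density was 47.1 (percentile 86.0) at 24 h and 11.0 (18.8) fed. At chr13:51966674-51968811 it was 37.0 (percentile 78.4) at 24 h and 9.16 (11.3) fed. That region overlapped a CREB site of fasted liver and one of fed liver.

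Among the pairs ranked lower, chr3:129174556-129174970 had a 24 h density of 7.78, at percentile 10.1, and a fed density of 53.9, at percentile 88.1. The 24 h region was 414 bp wide and the fed one 1489 bp. In the 3 lists its percentile was 86.8 fed, 64.7 at 10 h and 8.51 at 24 h. At chr3:88906224-88906504 the density was 6.22 (percentile 4.19) at 24 h and 41.8 (79.5) fed. At chr6:136863788-136865960 it was 9.73 (percentile 19.3) at 24 h and 44.0 (81.3) fed. At chr8:12711868-12712497 it was 10.9 (percentile 24.8) at 24 h and 51.8 (86.9) fed, and within 12500 bp lay 2 other pairs ranked lower and 2 fed-only regions. At chr14:63797131-63797411 it was 10.2 (percentile 21.4) at 24 h and 43.8 (81.2) fed. No named pair ranked lower overlapped a GR site or a liver CREB site. Each of them overlapped a CREB site of hepatocytes given glucagon and corticosterone. So did each named pair ranked higher, except that at chr16:13678032-13680037, and the share over all pairs was 63.5%. All 10 pairs had a region in the 10 h list. In the densest 25% of either ranking, 137 of 6266 pairs (2.19%) ranked higher at 24 h and 124 (1.98%) lower.

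Binding of GR and CREB was not used to form these classes. The GR list came from isolated mouse hepatocytes, the main cell type of liver, given 10 nM glucagon and 1.7 uM corticosterone for 1 h. The CREB and phospho-CREB lists came from fasted and fed liver, and 3 further CREB lists from hepatocytes. A pair was counted at a site when its 24 h or its fed region had at least 1 base in common with the site. GR sites lay at 117 of the 776 pairs ranked higher at 24 h, 15.1% (12.7 to 17.8), and at 35 of the 796 ranked lower, 4.40% (3.18 to 6.05), a difference of 10.7 points (Newcombe interval 7.81 to 13.6). Over all pairs the share was 8.46%. It went down in order across 5 bins of rank shift, from 15.1% at 25 or more points higher through 9.72% at 10 to 25 points higher, 8.59% within 10 points and 6.10% at 10 to 25 points lower, to 4.40% at 25 or more points lower. Among pairs that moved by 40 points or more it was 24.9% of 173 ranked higher and 4.24% of 118 ranked lower.

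CREB sites of fasted liver lay at 16.2% of the pairs ranked higher at 24 h (126; 13.8 to 19.0) and at 4.65% of those ranked lower (37; 3.39 to 6.34), a difference of 11.6 points (8.63 to 14.6). Over all pairs the share was 17.8%, so for CREB it was the pairs ranked lower at 24 h that stood below the rest, and the pairs ranked higher were near the share of all pairs. CREB sites of fed liver had the same order with a smaller gap, 14.7% of the pairs ranked higher and 9.67% of those ranked lower, a difference of 5.02 points (1.79 to 8.27), against 21.4% over all pairs. Phospho-CREB sites were rare in both classes. Those of fasted liver lay at 2.96% (23) of the pairs ranked higher and 0.251% (2) of those ranked lower, against 3.61% over all pairs. Those of fed liver lay at 4.25% (33) of the pairs ranked higher and 0.754% (6) of those ranked lower, against 6.42% over all pairs. In isolated hepatocytes the interval of the difference included 0 for each of the 3 CREB lists. For CREB after glucagon the shares were 44.3% for pairs ranked higher and 42.8% for pairs ranked lower, a difference of 1.49 points (-3.40 to 6.38), against 51.0% over all pairs. With corticosterone added they were 62.6% and 60.1% (difference 2.58 points, -2.23 to 7.37), against 63.5% over all pairs, and in untreated cells 57.9% and 55.4% (2.46 points, -2.44 to 7.34), against 62.8%.

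**Figure D3:**
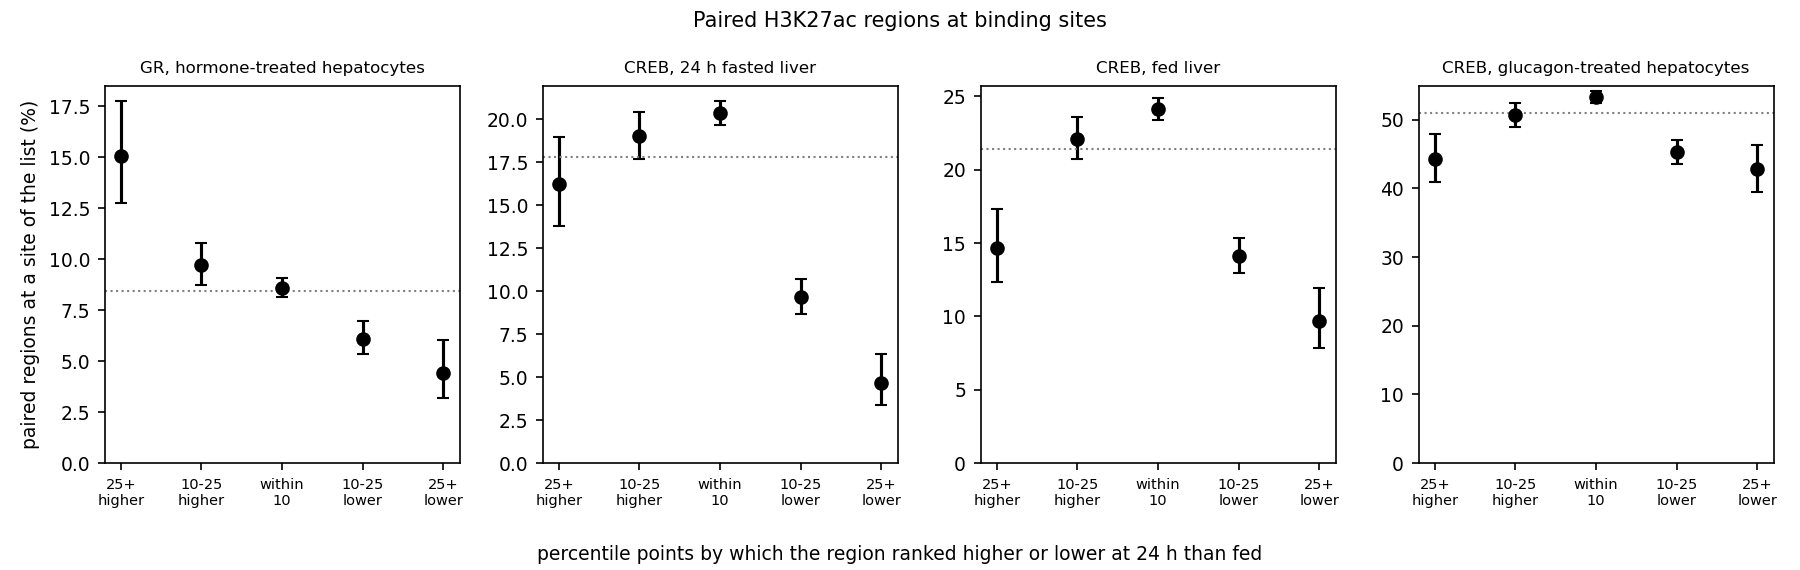
Share of paired H3K27ac regions at a site of each list (y axis, percent) in 5 bins of density rank shift (x axis, from 25 or more points higher at 24 h on the left to 25 or more points lower on the right). Points are shares, bars are 95% Wilson intervals and the dotted line is the share over all pairs. GR goes down from 15.1% to 4.40%, CREB of fasted liver lies at 16.2% and 4.65% at the ends with its highest share in the middle, and CREB of glucagon-treated hepatocytes differs little between the ends, at 44.3% and 42.8%.

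Width differed between the 2 regions of a moved pair, so the shares were also taken where it did not differ much. Among pairs whose widths were within 1.5 times of each other, GR sites lay at 13.3% of 293 ranked higher and 5.26% of 323 ranked lower, and CREB sites of fasted liver at 17.4% and 5.88%. In 500 bp windows around the midpoints the GR shares were 13.7% and 3.14%, and those of CREB in fasted liver 14.4% and 4.02%. The order was also that way under whole-list percentiles, with 12.98% and 3.51% for GR and 14.7% and 4.25% for CREB of fasted liver.

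Some pairs lay at both a GR site and a CREB site of fasted liver, and more lay at GR alone or at CREB alone. The GR list is from hormone-treated hepatocytes and the CREB list from liver, so joint binding was not tested. Both lay at 52 pairs ranked higher at 24 h (6.70%, 5.15 to 8.68), at 7 ranked lower (0.879%, 0.427 to 1.804) and at 3.83% of the pairs within 25 points. GR without fasted CREB was found at 8.38% of the pairs ranked higher and 3.52% of those ranked lower, against 4.53% of the pairs within 25 points. Fasted CREB without GR was found at 9.54% and 3.77%, against 14.6%. A CREB site in the fasted list but not in the fed list lay at 41 pairs ranked higher (5.28%) and at 3 ranked lower (0.377%), against 2.01% of the pairs within 25 points. A site in the fed list but not in the fasted list lay at 29 pairs ranked higher (3.74%) and at 43 ranked lower (5.40%), and the share within 25 points, 5.78%, was inside the interval of the pairs ranked lower. Neither GR nor fasted CREB lay at 75.4% of the pairs ranked higher, near the 77.1% within 25 points, and at 91.8% of those ranked lower. The GR sites at pairs ranked higher stood high in their own list, at a median density percentile of 86.0 over 121 sites, against 78.4 over 36 sites at pairs ranked lower and 80.1 over 1766 sites at pairs within 25 points.

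The livers fasted for 10 h gave a further rank for part of these pairs. Regions paired one to one in the fed, 10 h and 24 h lists numbered 15738 and were ranked among themselves, 585 of the 776 pairs ranked higher at 24 h and 589 of the 796 ranked lower. The 585 that ranked higher had median percentiles of 20.1 fed, 40.2 at 10 h and 54.8 at 24 h. The 589 that ranked lower had medians of 53.1 fed, 47.0 at 10 h and 20.9 at 24 h. The 14564 within 25 points had medians of 51.5 fed, 50.8 at 10 h and 51.4 at 24 h. The fed and 24 h percentiles chose the classes, so one is low when fed and the other low at 24 h by choice. A 10 h value near the middle of the ranking then falls closer to 24 h in the first class and closer to fed in the second, and no order in time was read from these medians.

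**Figure D4:**
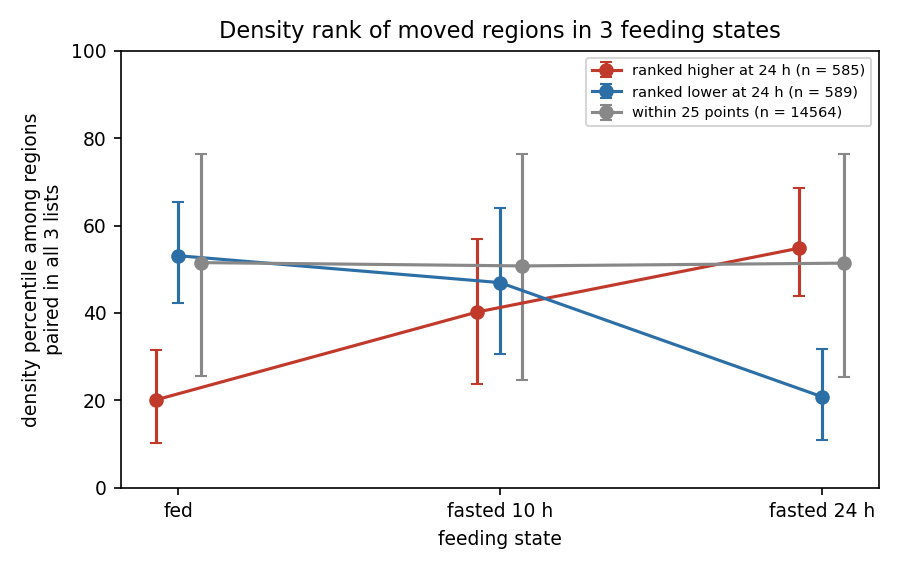
Median density percentile (y axis) of regions paired in all 3 H3K27ac lists, in fed, 10 h fasted and 24 h fasted liver (x axis), for regions ranked 25 or more points higher at 24 h than fed (red, 585), ranked lower (blue, 589) and within 25 points (grey, 14564). Bars run from the first to the third quartile of the regions. The fed and 24 h values chose the classes, and at 10 h the medians of both, 40.2 (red) and 47.0 (blue), lie nearer to the middle of the ranking than the value by which each class is low (20.1 fed for red, 20.9 at 24 h for blue).

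Regions of all classes were wide in the 10 h list, which was longer than the others. Regions ranked higher at 24 h had median widths of 672 bp fed, 1282 bp at 10 h and 1359 bp at 24 h, and those ranked lower had 1280 bp fed, 1422 bp at 10 h and 654 bp at 24 h. Regions within 25 points were also wider at 10 h, at 1059 bp fed, 1312 bp at 10 h and 1083 bp at 24 h. The 10 h list held 47777 regions and reached down to a z-score of 7.72, and the part of that in the widths was not tested.

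The 24 h-only and fed-only regions gathered near shared regions and near each other. Of the 24 h-only regions, 56.0% (54.8 to 57.2) had a shared region of their list within 12500 bp and 35.4% (34.2 to 36.5) had another 24 h-only region. For fed-only regions the shares were 63.9% (62.4 to 65.3) and 33.0% (31.6 to 34.4). In lists of equal length by density the order of the first pair of shares turned, with 60.7% of 24 h-only and 59.0% of fed-only regions near a shared region, and within 5 kb the order of the second pair turned, with 26.2% and 27.3% near another of their kind. Shared regions were closer packed, with another shared region within 12500 bp for 70.2% of those at 24 h and 70.3% of those fed.

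Pairs ranked higher or lower at 24 h had neighbours of the same direction more often than pairs within 25 points did. Most of them had no neighbouring pair of their own class. Within 12500 bp of the 776 pairs ranked higher, 101 (13.02%, 10.8 to 15.6) had another pair ranked higher and 3 (0.387%) had a pair ranked lower. Of the 796 ranked lower, 128 (16.1%, 13.7 to 18.8) had another pair ranked lower and 3 (0.377%) had one ranked higher. Among pairs within 25 points, 2.76% had a neighbour ranked higher and 3.72% one ranked lower. The 24 h-only and fed-only regions followed the same lines. Pairs ranked higher had a 24 h-only region nearby in 38.1% of cases (34.8 to 41.6) and a fed-only region in 5.80% (4.36 to 7.67). Pairs ranked lower had a 24 h-only region nearby in 10.3% (8.38 to 12.6) and a fed-only region in 39.3% (36.0 to 42.8). For pairs within 25 points these shares were 22.2% and 17.5%.

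**Figure D5:**
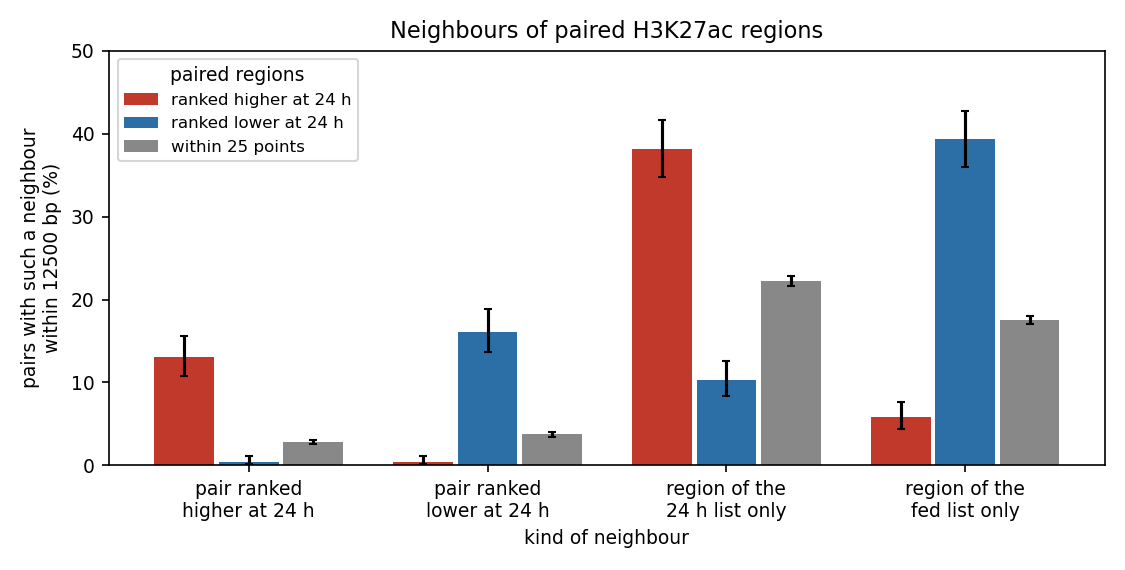
Share of paired H3K27ac regions (y axis, percent) that have a neighbour of each kind (x axis) within 12500 bp, for pairs ranked higher at 24 h (red, 776), ranked lower (blue, 796) and within 25 points (grey, 19675). Bars are shares and lines are 95% Wilson intervals. Red bars are tallest beside pairs ranked higher (13.02%) and 24 h-only regions (38.1%), and blue bars beside pairs ranked lower (16.1%) and fed-only regions (39.3%).

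Parts of 1 broken stretch can lie side by side, so neighbours closer than 1000 bp were also left out. Between 1000 and 12500 bp, 26.5% of the pairs ranked higher had a 24 h-only region and 4.77% a fed-only region. For pairs ranked lower the shares were 9.05% and 27.4%. The nearest other pair, whatever its class, leaned the same way too. For 411 pairs ranked higher that had another pair within 12500 bp, that neighbour was shifted by a median of 10.0 points, upward in 80.3% of cases. For 514 pairs ranked lower the median was -11.2 points, with 18.3% upward. For pairs within 25 points it was -0.202 points, with 48.8% upward. GR sites lay at 19.6% (15.5 to 24.5) of the 296 pairs ranked higher that had a 24 h-only region nearby and at 12.3% (9.65 to 15.5) of the 480 that had none. For CREB of fasted liver these shares were 13.9% and 17.7%. Among pairs ranked lower, GR lay at 5.75% of the 313 with a fed-only region nearby and at 3.52% of the 483 without.

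Joining regions of both lists across gaps of up to 12500 bp gave 16728 clusters. Of these, 8845 held shared regions alone, 2169 held shared regions with 24 h-only regions, 1639 held shared regions with fed-only regions, and 653 held regions of both kinds. 24 h-only regions stood alone in 2244 clusters and fed-only regions in 1178. Groups of 2 or more with no region of the other list numbered 336 at 24 h and 174 fed. Of the 336, 40 had a region at a GR site (11.9%, 8.87 to 15.8) and 39 at a CREB site of fasted liver (11.6%, 8.61 to 15.5). Of the 174, 7 had one at a GR site (4.02%, 1.96 to 8.07) and 3 at a CREB site of fasted liver (1.72%, 0.588 to 4.95). These are shares of groups of several regions. Counted by region, GR sites lay at 5.59% of all 24 h-only regions and 2.90% of all fed-only regions, below the shares of shared regions, 8.55% of those at 24 h and 8.76% of those fed. CREB sites of fasted liver lay at 6.21% of the 24 h-only and 3.31% of the fed-only regions, against 17.0% and 17.3% of the shared regions of the 24 h and the fed list. Shared regions were also wider, at medians of 990 bp at 24 h and 958 bp fed. The medians were 434 bp for 24 h-only and 444 bp for fed-only regions, and the part of width in these shares was not tested. CREB sites of fed liver lay in 10.1% of the 24 h groups and 7.47% of the fed groups, with overlapping intervals of 7.33 to 13.8 and 4.42 to 12.4. CREB sites of glucagon-treated hepatocytes lay in 30.7% of the 24 h groups and 29.3% of the fed groups. Counted by region, hepatocyte CREB went the other way from GR and fasted-liver CREB. After glucagon it lay at 18.5% of 24 h-only and 23.0% of fed-only regions (difference -4.55 points, -6.12 to -2.99). With corticosterone added the shares were 27.7% and 35.6% (-7.90, -9.69 to -6.12), and in untreated cells 23.8% and 31.2% (-7.36, -9.08 to -5.65). These were not recomputed in lists of equal length. The 10 h list held a region in 77.4% of the 24 h groups and 88.5% of the fed groups.

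A few clusters differed along a long stretch. On chromosome 18, a 25.7 kb stretch at chr18:12855677-12881393 held 7 regions at 24 h and 0 in the fed list. Those 7 had densities of 17.7 to 29.2, between percentiles 58.8 and 76.3 of the 24 h list, and widths of 332 to 3142 bp. Of the 7, 2 were in the 10 h list, and 3 GR sites lay in the stretch. On chromosome 19, a 39.7 kb stretch at chr19:44454264-44493929 held 1 region at 24 h and 10 in the fed list, 9 of which were fed-only. Their densities of 12.7 to 39.9 lay between percentiles 31.9 and 81.3 of the fed list, and 8 of the 9 were in the 10 h list. That stretch held 2 GR sites and 1 CREB site each of fasted and fed liver.

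The other clusters named by the same count were weaker. At chr3:25416626-25455090 there were 25 regions at 24 h and 12 in the fed list, 14 of them 24 h-only, and their densities of 5.50 to 8.85 lay between percentiles 4.90 and 24.3 of the 24 h list. The stretch held 24 CREB sites of fasted liver, 23 of fed liver and 15 phospho-CREB sites in each state, and of its 8 pairs 0 had moved. From hepatocytes it held 4 GR sites, and 4 CREB sites after glucagon, 2 with corticosterone added and 1 in untreated cells. At chr6:83581161-83605888 there were 13 regions at 24 h and 6 fed, 8 of them 24 h-only, with densities of 4.92 to 7.17. At chr2:118358567-118380686 there were 2 regions at 24 h and 9 fed, 7 of them fed-only, and 1 of its 2 pairs ranked lower. At chr4:117889658-117924191 there were 2 regions at 24 h and 8 fed, 7 of them fed-only. In both of these fed stretches all 7 fed-only regions were in the 10 h list.

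Some broad regions of 1 state were broken up in the other. Of the 32103 regions of the 24 h list, 1471 overlapped 2 or more fed regions and 91 overlapped 3 or more. Of the 29917 regions of the fed list, 1473 overlapped 2 or more 24 h regions and 123 overlapped 3 or more. The most overlapped by 1 region was 5 in each direction. At chr9:46063655-46070431 the 24 h list had 1 region of 6776 bp (density 105.4) where the fed list had 5 of 609 to 2955 bp, and at chr11:7091874-7100076 it had 1 of 8202 bp (36.7) where the fed list had 4. In the fed list, chr1:21309559-21319303 was 1 region of 9744 bp (density 64.0) where the 24 h list had 5 of 560 to 2763 bp, and chr9:42264532-42272497 was 1 of 7965 bp (30.9) where the 24 h list had 5. Such regions were not ranked as pairs. The other 6 named by this count spanned 6351 to 6713 bp at 24 h and 6695 to 7201 bp in the fed list, and each overlapped 4 regions of the other list.

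The differences were spread over the chromosomes. The share of 24 h regions absent from the fed list ran from 18.2% on chromosome 4 to 22.3% on chromosome X, apart from 14.9% of 101 regions on chromosome Y. The share of fed regions absent from the 24 h list ran from 12.6% on chromosome X to 16.4% on chromosome 16, apart from 1.09% of 92 regions on chromosome Y. Chromosome 14 had 2.69% of its pairs ranked higher at 24 h and 6.01% ranked lower, and chromosome 3 had 3.22% and 5.39%. On chromosome 1 these shares were 4.40% and 3.37%, and on chromosome 5 4.48% and 3.88%.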

How the data were processed

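The submitters' processing notes name CASAVA 1.8 and the mouse build mm9. The names of the deposited lists speak of hotspot calling on 3 pooled libraries per H3K27ac group. For the aligner and the caller's settings the labels give nothing. Per the file headers, each deposited list gives positions, the authors' highest density per region (a signal, normalisation not stated), the authors' z-score (a score) and a p-value, which was deposited by the authors and not used here. The density was the measure for ranking within a list. Of 13 lists, 11 were tied to a group by the library numbers in their names, and 2 lists (8 columns) fitted no sample's labels and were left out.

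From the lists, overlap was computed with coordinates read as inclusive, width as end minus start, and percentiles with ties averaged. Shares have 95% Wilson intervals, differences of shares Newcombe intervals, and medians intervals from order statistics. No test was run, because there is 1 list per state. Named regions were the 5 pairs with the largest percentile differences in each direction within the densest 25% of either ranking, the 5 densest and 5 widest regions of each list alone, the 3 clusters with the most regions of each list alone, and the 5 regions of each list overlapping most regions of the other. The members and lists were chosen with earlier results of these data known. Planned gene lists were not run, because no mm9 annotation was at hand. The overlap and pairing code was tested on simulated lists. Alternatives were other overlap rules, lists of equal length, ranks by z-score or in each whole list, a 40 point limit, gaps of 5 and 25 kb, 500 bp windows, and subsets by z-score, width or chromosome. Those by z-score range or width, for nearer neighbours, for binding at 40 points or in whole-list ranks, and for distance and binding of one-list regions at equal length were chosen after seeing the data. Overlaps and percentiles were computed in Python 3.11.15 with pandas 2.3.3 and numpy 2.4.6, intervals with SciPy 1.17.1, and plots with matplotlib 3.10.9.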

Additional observations from a re-analysis of the deposited data

How the results depend on the processing

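Of 128 recomputed values, 84 moved by less than their interval or, for counts, less than 1.5 times, and 44 moved further. The cause was not tested where none follows from the setting itself. The overlapping shares of the 24 h and the fed list were 79.1% and 84.8% when 50% of the shorter region had to be shared, and 84.2% and 89.5% with a gap of up to 500 bp. They were 82.6% and 82.9% in lists of equal length by density, and 82.8% and 83.3% by z-score. With both lists cut to their upper 50% by density they were 82.1% and 88.2%. In that setting 2877 24 h regions and 1771 fed regions had no partner in the upper 50% of the other list. Many of these can have a weaker partner in the whole list. With 24 h regions under the lowest fed z-score left out, the 24 h share was 87.8% and 3223 were 24 h-only. In lists of equal length by density, the median widths of the 24 h-only and fed-only regions were 467 and 451 bp, 60.7% and 59.0% lay within 12500 bp of a shared region, 34.4% of the fed-only regions had another near, and GR sites lay at 6.22% of the 24 h-only regions. Within 5 kb, 44.7% at 24 h and 49.5% fed were near a shared region and 26.2% and 27.3% near another of their kind, and within 25 kb these were 66.7%, 74.9%, 43.4% and 40.5%. At a 40 point limit, 173 pairs ranked higher and 118 lower, and 24.9% of the 173 lay at a GR site. Several orders between 24 h and fed thus turned. In lists of equal length this held for the width of one-list regions and for their nearness to shared regions or to the other list (63.6% and 61.8% within 12500 bp). Within 5 kb it held for nearness to another of their kind. With whole-list percentiles (1102 and 541) or a 40 point limit (173 and 118) it held for the counts of pairs ranked higher and lower. In 500 bp windows the GR share of pairs ranked lower was 3.14%. Leaving out neighbours nearer than 1000 bp gave 26.5% and 27.4% for the neighbours of pairs ranked higher and lower. The order of the pairs ranked higher and lower at GR and fasted CREB sites was the same in every setting run for it. That of CREB sites after glucagon and corticosterone turned when pairs were ranked by z-score (56.9% and 57.1%).

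No paired analysis was possible because the 3 libraries of each state are pooled in 1 list, and for the same reason leaving out a replicate was not run. The depth of the lists is unknown. The lowest z-score was 8.61 at 24 h and 10.9 fed, and 3303 of the 6526 24 h-only regions had a z-score under the lowest fed one.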
